A study of Homo sapiens with 3 samples.

Results

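The zinc finger genes at the far end of the long arm of chromosome 12 (band 12q24.33) were followed in NCI-H23 cells, a human lung adenocarcinoma line, after siRNA against USP16 or control siRNA. The group held 7 of the 50868 genes in the deposited tables: ZNF605, ZNF26, ZNF84, ZNF140, ZNF891, ZNF10 and ZNF268. It was drawn around ZNF84, which was chosen by its log2 changes against the control, high and alike in both knockdown libraries, and the other 6 genes were taken as its zinc finger neighbours by position. The values of ZNF84 are therefore a description, and the question put to the data is how its neighbours behaved. There were 2 libraries from cells given siRNA against USP16, numbered 1 and 2 in their labels, and 1 library from cells given control siRNA. The labels do not say whether the numbers mark different siRNAs, separate cultures or repeat libraries of the same cells. The 2 libraries differed well past counting error (chi-square 62.5 per degree of freedom). What the spread behind a p-value here stands for is therefore not known.

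Genes of this family encode proteins with repeated C2H2 zinc fingers that bind DNA, and many also carry a KRAB domain. KRAB domains recruit the corepressor TRIM28, which brings the histone H3 lysine 9 methyltransferase SETDB1 and heterochromatin protein to the bound site, and such proteins are best known for silencing transposable elements. They commonly lie in tandem clusters that arose by duplication. USP16 is a protease that takes ubiquitin off histone H2A, a mark laid down by Polycomb complexes.

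USP16 itself had 109 and 245 counts in knockdown libraries 1 and 2, against 632 counts in the control library. Its scaled levels were 7.69 and 15.8 CPM (counts relative to the TMM-scaled library total) in the knockdown libraries and 47.5 CPM in the control. Library totals lay between 13956382 and 15071179 counts, and mitochondrial genes took 7.33% to 7.41% of counts in the knockdown libraries and 8.56% in the control. Epithelial markers were present at unlike levels. KRT18 had 1986 and 3364 counts in the knockdown libraries and 2903 in the control, and KRT8 had 1118 and 1880, against 2214. Far fewer counts fell on KRT7 (23 and 49 in the knockdown libraries, 81 in the control). KRT19 (55 and 52, against 62) and CDH1 (39 and 93, against 142) were low as well. The lung lineage factor NKX2-1 had 4 and 10 counts in the knockdown libraries and 6 in the control, and the surfactant genes SFTPB and SFTPC were at 0 in all 3 libraries. NAPSA, a lung lineage protease gene, had 20 and 9 counts in the knockdown libraries and 20 in the control. Of the 6 epithelial markers, 5 were lower in both knockdown libraries, and EPCAM was higher (161 and 232 counts, against 38 in the control). Of all genes tested, 33.5% were lower in both and 33.4% higher in both. KRT18 counts as lower with a log2 change of only -0.01 in library 2. Among 4 markers of other cell types, PTPRC (leukocytes) and PECAM1 (endothelium) had at most 1 count in any library. The mesenchymal gene VIM had 19284 and 7957 counts in the knockdown libraries and 20066 in the control, and COL1A1 had 881 and 700 in the knockdown libraries and 918 in the control. The part of these shifts in the results below was not tested.

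The 7 genes span 296524 bases of hg38, from position 132918308 to position 133214831 of chromosome 12, and 5 lie on the plus strand and 2, ZNF605 and ZNF891, on the minus strand. From the centromere side, ZNF605 (132918308 to 132956306) comes first and ZNF26 (132986365 to 133032952) next. ZNF84 (133037292 to 133063304) starts 4339 bases beyond the end of ZNF26, and ZNF140 (133079838 to 133107544) lies 16533 bases beyond ZNF84. ZNF891 (133106817 to 133130473) overlaps the end of ZNF140 by 728 bases on the other strand, and its start site is 102 bases from that of ZNF10 (133130575 to 133159465), from which it is transcribed away. ZNF268 (133181409 to 133214831) closes the cluster. Some reads cannot be assigned with certainty, since the use of strand in the counting is not given in the sources used here. Nearly all of ZNF605 overlaps CHFR, a mitotic checkpoint ubiquitin ligase gene on the same strand, and their annotated start sites are 2 bases apart. Strand cannot separate their reads in that stretch. CTD-2140B24.4, a readthrough annotation that overlaps ZNF10 and ZNF268 on the same strand, had 7 and 11 counts in the knockdown libraries and 0 in the control. Against a floor of 3 counts in the control library, its ratios were 2.19 and 3.14 in knockdown libraries 1 and 2. Counting error on so few knockdown counts was left out, so these ratios are not lower bounds.

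Promoter windows, taken from RefSeq on GRCh38.p14 as 250 bases before to 50 bases after the start site, were available for all 7 genes. RefSeq start sites can differ from the gene positions given above, which come from another annotation. The ZNF140 window lies wholly inside that gene as placed above. Windows of 4 genes are given below, 5′ to 3′ along the gene: ZNF84, 2 neighbours of it that carry a repeated motif, and ZNF10, which shares 148 bases of its window with ZNF891. Capitals mark matches to ACANNTCCC, part of the element bound by the factor ZNF143, to the E-box CACGTG or to the cyclic AMP response element TGACGTCA, searched on both strands.
ZNF84, chr12:133037259-133037558, plus strand: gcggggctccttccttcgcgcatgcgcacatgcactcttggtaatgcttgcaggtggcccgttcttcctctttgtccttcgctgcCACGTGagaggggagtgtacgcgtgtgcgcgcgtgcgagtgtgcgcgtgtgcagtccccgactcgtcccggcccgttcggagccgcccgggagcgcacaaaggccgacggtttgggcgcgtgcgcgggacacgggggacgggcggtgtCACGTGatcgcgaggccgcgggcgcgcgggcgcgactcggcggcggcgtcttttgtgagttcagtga
ZNF605, chr12:132956257-132956556, minus strand: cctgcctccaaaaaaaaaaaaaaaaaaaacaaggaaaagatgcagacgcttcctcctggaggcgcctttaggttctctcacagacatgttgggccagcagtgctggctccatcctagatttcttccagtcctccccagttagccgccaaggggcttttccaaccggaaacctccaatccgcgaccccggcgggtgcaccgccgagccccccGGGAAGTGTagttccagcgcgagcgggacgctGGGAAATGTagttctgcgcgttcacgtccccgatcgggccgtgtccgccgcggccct
ZNF140, chr12:133080673-133080972, plus strand: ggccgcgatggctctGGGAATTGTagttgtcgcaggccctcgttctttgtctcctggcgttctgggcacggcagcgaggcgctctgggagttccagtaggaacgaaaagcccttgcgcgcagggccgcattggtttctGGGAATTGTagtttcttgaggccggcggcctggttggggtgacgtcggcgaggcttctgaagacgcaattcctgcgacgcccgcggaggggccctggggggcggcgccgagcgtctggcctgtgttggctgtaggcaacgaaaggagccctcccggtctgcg
ZNF10, chr12:133130377-133130676, plus strand: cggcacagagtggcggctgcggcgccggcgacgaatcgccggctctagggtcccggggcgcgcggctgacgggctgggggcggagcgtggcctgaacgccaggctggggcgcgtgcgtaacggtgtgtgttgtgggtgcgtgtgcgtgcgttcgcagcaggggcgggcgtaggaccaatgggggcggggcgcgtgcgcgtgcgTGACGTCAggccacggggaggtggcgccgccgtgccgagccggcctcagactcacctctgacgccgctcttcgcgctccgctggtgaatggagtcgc
ACANNTCCC stood in the windows of 4 of the 7 genes, against 6.42% of all 35097 windows and 17.7% of the 519 windows of ZNF symbols. All 4 motifs, and the length of this one, were chosen after these promoters had been looked at, and other patterns were searched and dropped. ZNF605 and ZNF140 held 2 matches each, and ZNF26 and ZNF268 held 1 each, all on the opposite strand. Neither of the 2 windows of ZNF84 held it, nor did those of ZNF891 and ZNF10. The first ZNF84 window instead held CACGTG at -165 and at -17 from the start site, a motif found in 7.25% of all windows and 5.01% of ZNF windows. ZNF10 held TGACGTCA (1.85% of all windows and 3.66% of ZNF windows). GGGCGG, the GC box, was in the windows of 4 of the 7 genes, in 44.9% of all windows and in 62.4% of ZNF windows. These are letter matches in 1 window a start site, and binding was not measured.

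**Figure D1:**
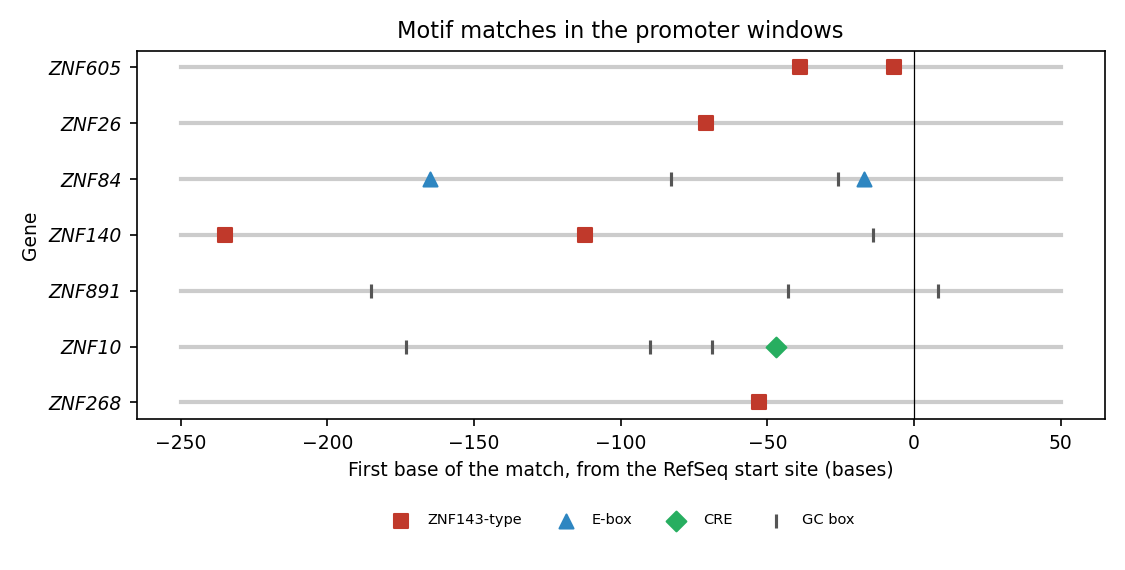
Matches to 4 motifs in the promoter windows of the 7 genes, each drawn as a line from 250 bases before to 50 bases after its RefSeq start site (x axis, bases; genes run down the page in chromosome order; for ZNF84 the more upstream of its 2 windows is drawn). ZNF605, ZNF26, ZNF140 and ZNF268 hold ZNF143-type matches (red squares, ACANNTCCC), and ZNF84, ZNF891 and ZNF10 hold none.

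ZNF84 had 681 and 684 counts in knockdown libraries 1 and 2, against 90 counts in the control library. Its levels were 48.0 CPM (exact Poisson 95% interval 44.5 to 51.8) and 44.0 CPM (40.7 to 47.4) in the knockdown libraries and 6.76 CPM (5.44 to 8.31) in the control. Both knockdown libraries were far above the control and close to each other. In bulk RNA, a larger share of cells with the transcript and more of it per cell cannot be told apart. The level was 7.11 times that of the control in library 1 (exact binomial 95% interval 5.7 to 8.96) and 6.51 times in library 2 (5.22 to 8.2), and the ratio of library 2 to library 1 was 0.915 (0.822 to 1.02). Intervals here and below cover counting error only. On the log2 scale the mean change was 2.74 ± 0.09 (SD, n = 2), a spread that leaves out the variation of the single control that both values share. ZNF84 stood at place 38 of 17287 genes tested and at place 2 of 434 tested genes with a ZNF symbol, which restates how it was picked.

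**Figure D2:**
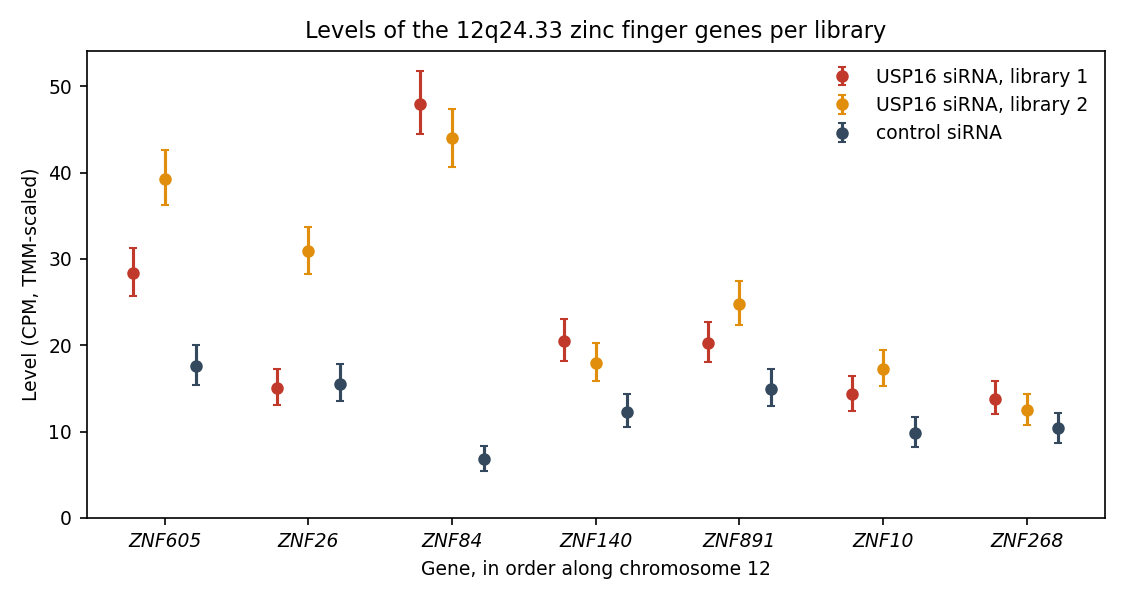
Level of each of the 7 genes in CPM (y axis, linear, from 0) in USP16 siRNA library 1, USP16 siRNA library 2 and the control siRNA library, with genes in chromosome order; points are single libraries and bars are exact Poisson 95% intervals. ZNF84 stands at 48.0 and 44.0 CPM in the knockdown libraries against 6.76 CPM in the control, and ZNF26 is high in knockdown library 2 alone.

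The 6 neighbours did not share the size of that difference, for which ZNF84 had been chosen. Of these, 5 exceeded the control in both knockdown libraries, and ZNF26 was higher in library 2 alone. Among all 17287 genes tested, 33.4% were higher in both knockdown libraries and 33.5% lower in both. At least a 2-fold difference in both libraries was seen for ZNF84 and for 0 of the 6 neighbours, against 3.75% of all genes tested. At so low a share, a count of 0 of 6 does not set the neighbours apart from genes at large. With edgeR's quasi-likelihood test and Benjamini-Hochberg adjustment over all genes, 0 of 6 neighbours passed, each with an adjusted p of 0.999, and 0 of 6 had an unadjusted p under 0.05, which 4.88% of all genes tested had. That test called 0% of all genes higher and 0.0174% lower. DESeq2 gave an adjusted p for 15611 genes and called 0.0512% of them higher and 0.0384% lower. It called 0 of the 6 neighbours as well. The control was a single library, which leaves 1 residual degree of freedom. USP16, the siRNA target, was 83.8% and 66.8% below the control in knockdown libraries 1 and 2. It did not pass the edgeR test after adjustment either, so a failure to pass after adjustment says little about a gene here. Before adjustment USP16 was under 0.05 in that test, unlike the 6 neighbours.

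ZNF605, upstream of ZNF84 and transcribed away from it, had the highest mean log2 change of the 6 neighbours, although in library 1 ZNF140 stood higher against the control. It had 402 and 612 counts in the knockdown libraries, against 234 in the control. Its level was 1.61 times (1.37 to 1.9) and 2.24 times (1.92 to 2.61) that of the control, and its log2 changes averaged 0.92 ± 0.33 (SD, n = 2, edgeR unadjusted p = 0.067). Both knockdown libraries were above the control, and library 2 was above library 1 by 1.39 times (1.22 to 1.58). CHFR, which ZNF605 overlaps on the same strand, had 318 and 448 counts in the knockdown libraries and 478 in the control. CHFR thus stood on the other side of the control, with log2 changes of -0.67 and -0.32.

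ZNF26, the gene just before ZNF84 on the same strand, differed between the knockdown libraries. It had 214 and 480 counts there, against 207 counts in the control. Its level was 0.971 times that of the control in library 1 (0.798 to 1.18) and 1.98 times in library 2 (1.68 to 2.35). Library 1 and the control thus overlapped within counting error, and library 2 was above library 1 by 2.04 times (1.74 to 2.41). The log2 changes were -0.04 and 0.98. The sign in library 1 depended on the scaling: with library totals in place of trimmed means of M-values it was 0.05, and that scaling moved the median of all genes by 0.11.

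ZNF140, the next gene beyond ZNF84, encodes a KRAB zinc finger protein. It had 291 and 279 counts in the knockdown libraries, against 164 in the control. Its level was 1.67 times (1.37 to 2.03) and 1.46 times (1.2 to 1.78) that of the control. Like ZNF84 it had similar levels in both knockdown libraries, with a ratio of library 2 to library 1 of 0.874 (0.739 to 1.03), and its mean log2 change was 0.63 ± 0.14 (SD, n = 2).

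ZNF891 and ZNF10, which start back to back, had alike values. ZNF10, also known as KOX1, is the source of the KRAB domain widely fused to inactive Cas9 to repress genes. ZNF10 had 202 and 269 counts in the knockdown libraries and 131 in the control, and ZNF891 had 287 and 385 counts in the knockdown libraries and 199 in the control. The level of ZNF10 was 1.45 times (1.16 to 1.82) and 1.76 times (1.42 to 2.18) that of the control. For ZNF891 these ratios were 1.35 (1.13 to 1.63) and 1.66 (1.39 to 1.98). Mean log2 changes were 0.67 ± 0.2 for ZNF10 and 0.58 ± 0.2 for ZNF891 (SD, n = 2 each). Both genes were higher in library 2 than in library 1, by 1.21 times (1.01 to 1.46) for ZNF10 and 1.22 times (1.05 to 1.43) for ZNF891.

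ZNF268, the gene nearest the chromosome end, had the smallest mean log2 change of the group. It had 196 and 195 counts in the knockdown libraries, against 138 in the control. Its level was 1.33 times that of the control in library 1 (1.07 to 1.67) and 1.21 times in library 2 (0.968 to 1.52). The second interval includes a ratio of 1, and the mean log2 change was 0.34 ± 0.1 (SD, n = 2).

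Summed, the 6 neighbours had 1592 and 2220 counts in the knockdown libraries and 1073 in the control. Their summed levels were 112 and 143 CPM in the knockdown libraries and 80.6 CPM in the control, or 1.39 times (1.29 to 1.51) and 1.77 times (1.65 to 1.91) the control. ZNF84 held 30.0% and 23.6% of the counts of all 7 genes in the knockdown libraries and 7.74% in the control. The median of the mean log2 changes was 0.63 over the 7 genes and 0.61 over the 6 neighbours, beside -0.02 over all genes tested. By library, the median over the 7 genes was 0.53 in library 1 and 0.81 in library 2. All 7 passed the filter on low counts, and none had fewer than 90 counts in any library.

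Per kilobase of annotated exon, the order of the levels differed between the groups mainly in the place of ZNF84. That shift follows from how ZNF84 was picked. Among its neighbours, ZNF140, ZNF605 and ZNF10 led in each library. ZNF84 was the highest in both knockdown libraries, at 5.05 CPM per kb (4.67 to 5.44) in library 1 and 4.62 (4.28 to 4.98) in library 2, and the lowest in the control, at 0.71 (0.571 to 0.873). In library 1 it was followed by ZNF140 at 3.82 (3.39 to 4.29), then ZNF605 at 2.62 (2.37 to 2.89) and ZNF10 at 2.57 (2.23 to 2.95), a pair whose intervals overlap. ZNF891 at 1.31, ZNF268 at 0.981 and ZNF26 at 0.724 CPM per kb came last there. In library 2, ZNF605 at 3.64 (3.35 to 3.93), ZNF140 at 3.34 (2.96 to 3.75) and ZNF10 at 3.12 (2.76 to 3.52) came after ZNF84 with overlapping intervals between adjacent places. ZNF891 at 1.6 (1.45 to 1.77) and ZNF26 at 1.48 (1.35 to 1.62) overlapped too, and ZNF268 was lowest at 0.889. In the control, ZNF140 led at 2.29 (1.95 to 2.67), ahead of ZNF10 at 1.78 (1.48 to 2.11) and ZNF605 at 1.62 (1.42 to 1.85), each interval overlapping the next. ZNF891 at 0.967 (0.837 to 1.11), ZNF26 at 0.745 (0.647 to 0.854), ZNF268 at 0.735 (0.618 to 0.869) and ZNF84 formed the low end, where each interval overlapped the next. With the length of the longest transcript instead, ZNF84 kept place 1 in both knockdown libraries and took place 5 in the control rather than 7.

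Beyond the zinc finger genes, the same end of the chromosome held 16 other genes within 1 Mb of the cluster that had a mean of at least 20 counts. Noncoding genes and a pseudogene are among these 16. In both knockdown libraries 7 were higher and 4 lower, beside 33.4% and 33.5% of all genes tested, and 5 were opposite in sign. Their mean log2 changes lay between -0.50 and 0.50, with a median of 0.03. None was 2-fold higher in both, as 3.75% of all genes tested were. FBRSL1, a relative of the Polycomb-associated AUTS2, had 1400 and 1112 counts in the knockdown libraries and 803 in the control. GOLGA3, a Golgi matrix protein gene, had 2963 and 2324 counts in the knockdown libraries and 1705 in the control. POLE, the catalytic subunit of DNA polymerase epsilon, had 3899 and 5515 counts in the knockdown libraries and 4252 in the control, so the control lay between them. PGAM5, a mitochondrial phosphatase gene, had 1686 and 2056 counts in the knockdown libraries and 1565 in the control. ANKLE2, a nuclear envelope protein gene, had log2 changes of -0.34 and -0.10. EP400, a chromatin remodelling ATPase gene, had -0.02 and -0.25.

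**Figure D3:**
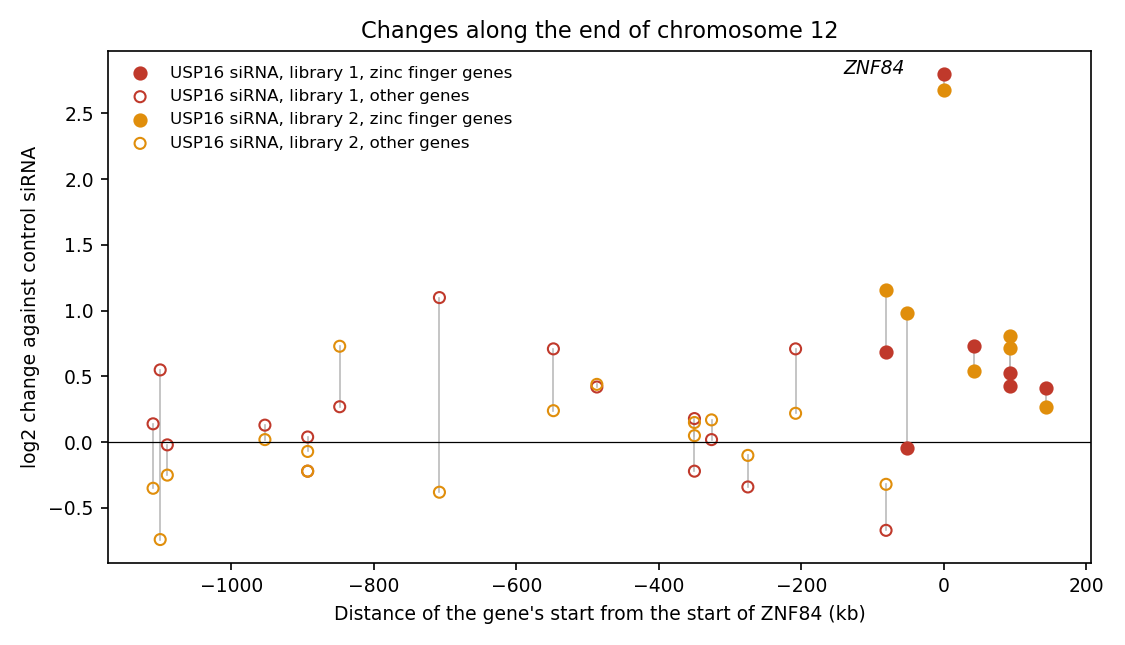
log2 change against control siRNA (y axis) in USP16 siRNA library 1 (red) and library 2 (orange) for each gene with a mean of at least 20 counts, by the distance of its start from the start of ZNF84 in kb (x axis); filled circles are the 7 zinc finger genes, open circles other genes, and a grey line joins the libraries of a gene. ZNF84 stands alone at 2.80 and 2.68, and the other zinc finger genes lie between -0.04 and 1.16.

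Zinc finger genes elsewhere give the setting for these values. Of the 427 other tested genes with a ZNF symbol, 39.3% were higher in both knockdown libraries, and the median of their mean log2 changes was 0.08. Their medians were 0.29 in library 1 and -0.04 in library 2. The 19q13.31 cluster around ZNF227, itself picked for a gene that was higher, had 10 of 19 members higher in both libraries and 2 lower in both, with a median of 0.32. There, 2 genes were at least 2-fold higher in both: ZNF227, with 309 and 100 counts in the knockdown libraries and 24 in the control, and ZNF233, with 25 and 19 counts in the knockdown libraries and 4 in the control. Whether the 12q24.33 cluster differs from the others was not tested. Of all genes tested, 14.2% had a higher mean log2 change than ZNF140, 13.4% than ZNF10 and 25.7% than ZNF268. For ZNF605, ZNF891 and ZNF26 these shares were 7.88%, 15.8% and 19.6%. Among the 434 tested ZNF symbols, ZNF605 stood at place 39, ZNF10 at 75 and ZNF140 at 83. ZNF891 was at place 95 there, ZNF26 at 114 and ZNF268 at 153. For each neighbour the share of ZNF symbols above it was larger than that of all genes, with 18.9% for ZNF140 and 17.1% for ZNF10.

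**Figure D4:**
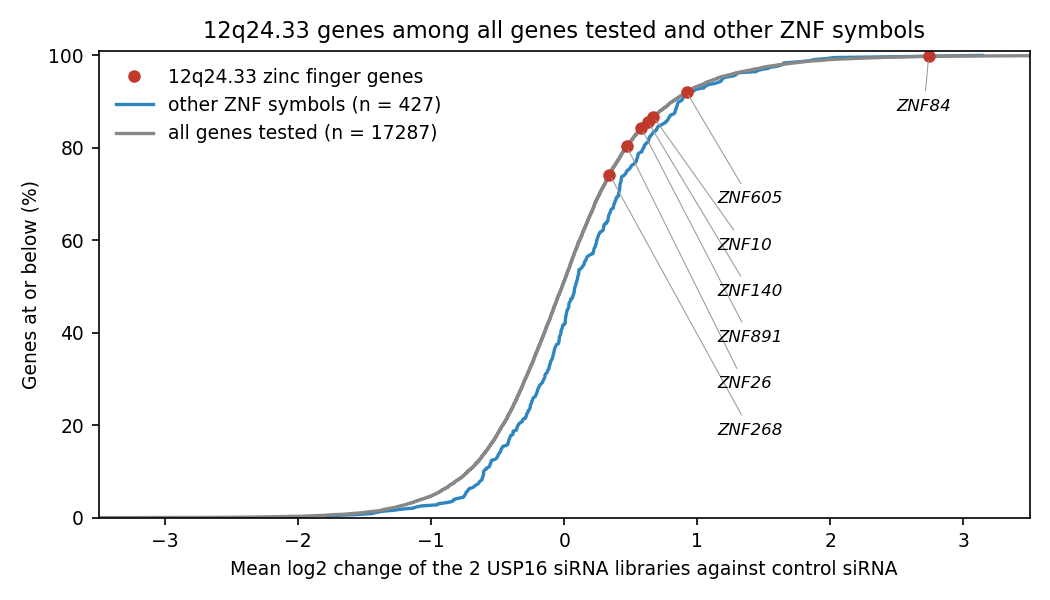
Cumulative share of genes (y axis, %) by mean log2 change of the 2 USP16 siRNA libraries against control siRNA (x axis), for the 427 other tested ZNF symbols (blue) and all 17287 genes tested (grey); red points place the 7 zinc finger genes of 12q24.33 on the curve of all genes. All 7 lie right of the medians, at 0.34 to 0.92 for the neighbours and 2.74 for ZNF84.

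**Figure D5:**
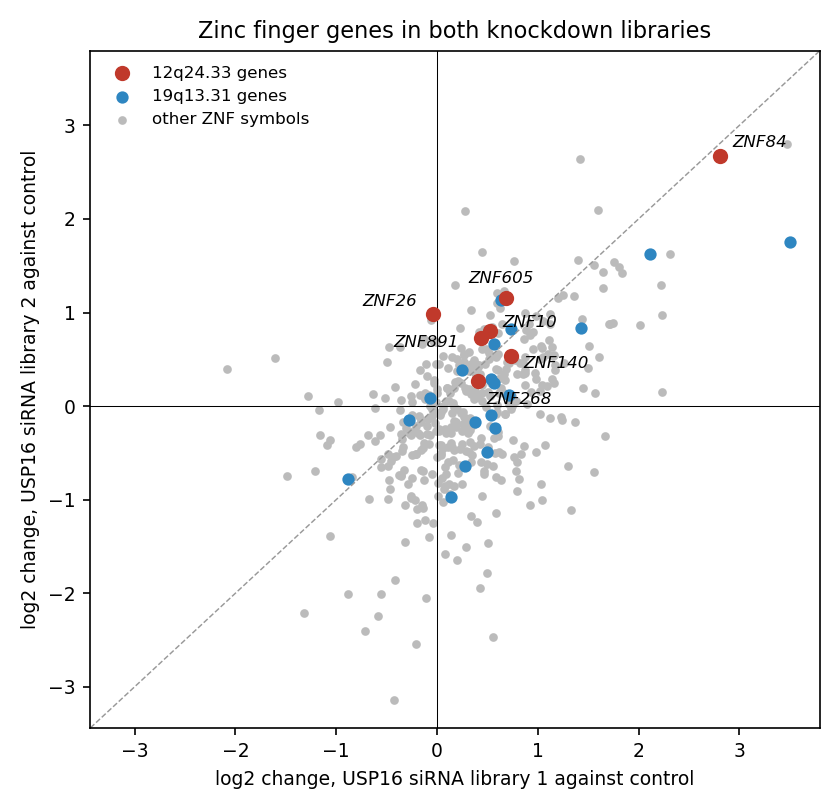
log2 change against control siRNA in USP16 siRNA library 1 (x axis) and library 2 (y axis) for tested ZNF symbols: 12q24.33 genes (red, named), 19q13.31 genes (blue) and others (grey); the dashed line marks equal change, and both axes share the single control library. ZNF84 lies near the line at 2.80 and 2.68, and ZNF26 lies well above it at -0.04 and 0.98.

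Genes of the KRAB corepressor and of its heterochromatin partners, not all of them recruited by KRAB proteins, were listed beside the cluster. All 17 were measured, and in both knockdown libraries 9 stood above the control and 4 below it (33.4% and 33.5% of all genes tested), with a median of 0.14 in the mean log2 change. With edgeR, 0 passed when adjusted over all genes and 1 of 17 had an unadjusted p under 0.05, beside 4.88% of all genes tested. DESeq2 called 0 of them. TRIM28, the KRAB corepressor, had 4464 and 3635 counts in the knockdown libraries and 5326 in the control, with log2 changes of -0.34 and -0.78. SETDB1, its methyltransferase partner, had 1430 and 1578 counts in the knockdown libraries and 1222 in the control (0.14 in each). HDAC1, a histone deacetylase gene, had 2841 and 3857 counts in the knockdown libraries and 1581 in the control (0.75 and 1.06). FAM208A, which encodes the TASOR subunit of the silencing complex HUSH, had 1728 and 1554 counts in the knockdown libraries and 853 in the control (0.93 and 0.64). CBX5, the gene of heterochromatin protein 1 alpha, had 4848 and 8798 counts in the knockdown libraries and 5827 in the control, so its log2 changes were opposite in sign (-0.36 and 0.37).

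The 5 genes with a pattern most like that of ZNF84 lay on other chromosomes, as most genes searched do. Likeness was the Euclidean distance between pairs of log2 changes over the 2 knockdown libraries, over the 11236 genes whose counts averaged 100 or more. COL4A1 was nearest, at 0.0528, followed by LGSN at 0.259, LAMA4 at 0.454, EME2 at 0.571 and KCTD20 at 0.78. The zinc finger neighbours of ZNF84 were farther away, from 2.61 for ZNF605 to 3.39 for ZNF268. These distances restate the large changes that chose ZNF84, beside the smaller ones of its neighbours.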

How the data were processed

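Gene expression was measured by mRNA sequencing in 3 samples of NCI-H23 cells, grouped by their treatment label and titles. The authors deposited read counts, whole numbers without visible normalization, for 50868 genes in 1 file a sample. HISAT2 2.0.4, StringTie 1.3.0 and hg38 are named, without a role, in the submitters' processing notes. How reads were counted, by strand or not, and what became of reads with several matches is not given in the sources used here, and zinc finger repeats are alike between genes, so single members carry that doubt. The count column of the knockdown sample labelled 2 is headed with the number 6, and was used as labelled.

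Genes were filtered with edgeR's filterByExpr (minimum count 10, 17287 genes left), scaled by TMM (factors 1.02 and 1.03 for knockdown libraries 1 and 2 and 0.952 for the control) and compared with edgeR 4.0.16 (R 4.3.3, glmQLFTest), p-values being adjusted over all genes after Benjamini and Hochberg at a threshold of 0.05. The fit takes the lone control to be as variable as the knockdown samples. ZNF84 stayed in these fits over all genes and in their counts of calls, but its own p is not given, since its changes chose it. Changes per library are differences in log2 CPM with a prior count of 2. Intervals are exact Poisson for levels and exact binomial for ratios, at 95%. Positions and exon lengths come from GENCODE release 29 on hg38, matched by identifier for 98.5% of genes, and promoter sequences from RefSeq. The code was tested on simulated data. The knockdown libraries were not identical (chi-square 62.5 per degree of freedom). DESeq2 1.42.0, other filters and scalings, a prior count of 10 and the omission of either knockdown library were alternatives.

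The members, lists and tests were chosen with earlier results of these data known. Genes named are the 7 members, USP16, genes within 1 Mb of the cluster with a mean of at least 20 counts, list members, the 5 genes nearest to ZNF84 in pattern and, outside this rule, CTD-2140B24.4, added for its overlap with 2 members after its values were seen.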

Additional observations from a re-analysis of the deposited data

How the results depend on the processing

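Over all genes, edgeR called 0 higher and 3 lower. Before adjustment 844 genes had p under 0.05. No filter on low counts gave 40 higher and 30 lower, DESeq2 gave 8 and 6, and library totals in place of TMM, added after seeing the data, gave 4 and 5. A minimum mean of 100 counts gave 1 lower, with fewer genes tested. The cause of the other differences was not tested. The count of the 7 genes higher in both knockdown libraries was 6, and 7 with library totals. Without either knockdown library it lay between 6 and 7. The count at least 2-fold higher was 1, and between 1 and 2 without a knockdown library, where ZNF605 joined ZNF84 in library 2. The median log2 change of the 7 genes lay between 0.53 and 0.81 without a knockdown library and between 0.61 and 0.74 otherwise. ZNF26 alone turned its sign, to -0.04 without knockdown library 2, against 0.98 without library 1. The mean log2 change of ZNF84 ranged from 2.65 to 2.85. No neighbour passed under any filter, scaling or test (adjusted p 0.895 to 1). The prior count does not enter the test. No paired analysis was possible because the control is a single library, so the groups share fewer than 2 replicate numbers. With 90 counts of ZNF84 in the control, counting error alone spans 5.44 to 8.31 CPM there.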
